A study of Canis lupus familiaris with 18 samples.

Results

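The complement genes measured in the fat of lean and obese dogs are described here: the components of the cascade, their receptors and their regulators. The list holds 31 genes, and 25 of them had at least 1 probe set whose only annotated symbol was that gene, out of 15115 genes with such a probe set on the array. Each probe set combines several short probes that target 1 transcript. A gene with several probe sets was represented by the one whose mean over the 18 arrays was highest. Of the 25 genes, 20 passed a filter on low values (a log2 signal of at least 4 in at least 4 arrays), against 8650 genes in all. That floor of log2 4 is the level below which a signal was treated as a bound.

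The study sampled 9 intact female beagles, 4 years old, after 24 weeks of feeding. By random assignment, 5 dogs ate ad libitum and were obese by then, and 4 control dogs were fed so that they held their starting weight and stayed lean. Gonadal and subcutaneous fat was taken from each dog after an overnight fast, and each sample was hybridised to its own Affymetrix canine array. All dogs ate the same commercial diet. The 4 groups were therefore gonadal fat of ad libitum dogs (5 arrays), gonadal fat of control dogs (4), subcutaneous fat of ad libitum dogs (5) and subcutaneous fat of control dogs (4). Both depots are whole tissue, which holds adipocytes, stromal cells, vessels and immune cells.

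Complement is a set of plasma and membrane proteins that mark particles and cells for removal. The classical pathway starts from C1q, the lectin pathway from sugar-binding proteins, and the alternative pathway from C3 itself with factors B and D and properdin, and all of them meet in the cleavage of C3. The terminal components then assemble into a pore, while soluble and membrane-bound regulators limit each step. Most plasma complement comes from the liver, but adipocytes are the classic source of factor D, also called adipsin, and macrophages make C1q.

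The 18 arrays had between 47.2% and 49.0% of their probe sets at or above the floor. Of them, 4 stood apart because they carried transcripts of another tissue, with a marker mean more than 3 log2 units above the median array. Subcutaneous fat of ad libitum dog 7 had skeletal muscle markers 1.86 units above it. That array was not among the 4 and stayed in the fits without them. Markers of skeletal muscle averaged 5.66 log2 units above the median array in gonadal fat of ad libitum dog 2, 7.23 in subcutaneous fat of control dog 3 and 6.15 in that of control dog 4. Markers of ciliated epithelium and oviduct lay 5.32 units above it in gonadal fat of ad libitum dog 6 and 3.68 in subcutaneous fat of control dog 4. All 9 adipocyte markers were at or above the floor on all 18 arrays. Of 7 liver markers ALB, TTR, FGB and FGA were below it on every array, AHSG reached it on 1 array, APOA1 on 12 and SERPINA1 on all 18 (means of 6.98 in gonadal and 7.24 in subcutaneous fat). According to the labels the subcutaneous arrays alone had been submitted before, with other processed values. A batch of arrays and the depot therefore cannot be told apart.

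In gonadal fat, against subcutaneous fat of the same dogs, the central component C3 and the terminal components C6 and C7 were higher, and 6 complement genes were lower: C1QA, C1S, CFD, CFP, C5AR1 and C8G. These are 9 of 20 tested members (limma, adjusted p under 0.05, difference averaged over the feeding groups), beside 16.6% of all probe sets tested. The fit had no term for the dog. With the dog as a fixed block C7 was lost, and C1QC and CFI were added. The median difference of the 20 members was -0.30 on the log2 scale, and that of all genes tested was -0.01. By role, 2 of 6 tested classical and lectin genes were lower and none was higher on its chosen probe set. However, 3 other probe sets of C2 were higher, and 1 of them met the filter through gonadal fat alone. Both alternative pathway genes were lower, of 3 terminal genes 2 were higher and 1 was lower, and 1 of 2 receptors was lower. None of the 4 soluble regulators, the surface regulator CD59 or the C1q-binding protein gene C1QBP passed. Without the 4 arrays that carried transcripts of another tissue 6 members passed, C1QA, C3, CFP, C6, C8G and C5AR1, beside 14.2% of all probe sets. C8G met the filter through 1 group alone, as set out with its values, so its place in these counts is no support for them. In bulk tissue a smaller number of cells of a type and less RNA per cell cannot be told apart.

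**Figure D1:**
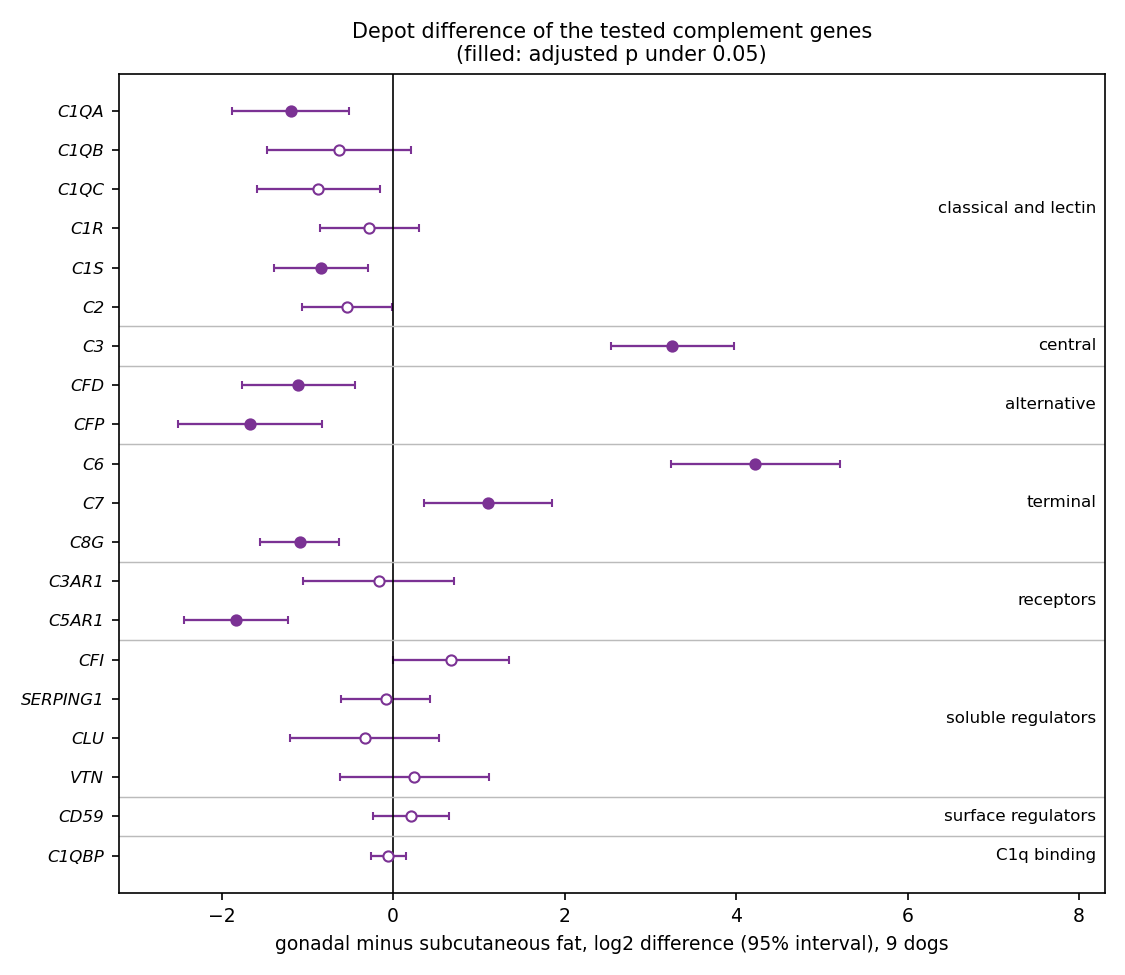
Gonadal minus subcutaneous log2 difference of the 20 tested complement genes, averaged over ad libitum and control dogs (9 dogs), with 95% intervals from limma, grouped by role. Filled points have an adjusted p under 0.05: C3, C6 and C7 lie to the right of 0, and C1QA, C1S, CFD, CFP, C8G and C5AR1 to the left.

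C3 is the component on which all activation pathways converge, and its fragments tag surfaces and stimulate cells. Its log2 signal in gonadal fat was 13.89, 15.23, 14.00, 14.68 and 13.95 in ad libitum dogs 2, 5, 6, 7 and 8, and 14.25, 13.74, 15.17 and 13.95 in control dogs 1, 3, 4 and 9. In subcutaneous fat it was 9.94, 11.60, 10.26, 10.35 and 9.72 in the ad libitum dogs and 11.20, 10.55, 12.90 and 12.32 in the control dogs, in the same order. The depots did not overlap, and the subcutaneous arrays nearest to the gonadal range were those of control dogs 4 and 9. C3 was higher in gonadal fat of 9 of 9 dogs, with a log2 difference of 3.26 ± 0.34 (standard error, adjusted p = 1.90e-05) or 9.57-fold. All 6 of its probe sets passed, with differences of 3.26 to 4.49.

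C6 is the terminal component that joins C5b and C7 at the start of the pore. In gonadal fat its log2 signal was 11.12, 12.03, 9.31, 12.51 and 12.02 in ad libitum dogs 2, 5, 6, 7 and 8, and 10.75, 10.32, 12.52 and 12.43 in control dogs 1, 3, 4 and 9. In subcutaneous fat the same dogs had 6.88, 7.71, 6.24, 6.16 and 6.71 (ad libitum) and 6.29, 7.41, 8.85 and 8.28 (control). The depots again did not overlap, although gonadal fat of dog 6 and subcutaneous fat of dog 4 came within 1 log2 unit of each other. C6 was higher in gonadal fat of 9 of 9 dogs by 4.23 ± 0.46 (adjusted p = 3.10e-05), or 18.7-fold, the largest difference among the 20 members. Its 3 probe sets gave 4.23 to 4.49. For 1 of them, at or above the floor on 9 arrays, the subcutaneous mean was 2.83, below the floor. Its difference is therefore a description and not independent support.

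C7, which anchors the growing complex in the membrane, differed less. Its log2 signal was 7.79, 8.88, 7.87, 7.44 and 8.43 in gonadal fat of ad libitum dogs 2, 5, 6, 7 and 8 and 7.83, 6.74, 6.31 and 8.03 in that of control dogs 1, 3, 4 and 9. Subcutaneous fat had 7.12, 6.47, 6.02, 6.59 and 6.33 in ad libitum dogs and 4.73, 7.27, 6.83 and 7.52 in control dogs. The depots overlapped through the control dogs, and within ad libitum dogs they did not overlap (1.58 ± 0.47, adjusted p = 0.0524, and 0.0309 with the dog as a random block). It was higher in gonadal fat of 7 of 9 dogs by 1.11 ± 0.35 (adjusted p = 0.0412), and its second probe set gave 1.49 (adjusted p = 0.00265). The call was lost in 10 of 21 alternative settings. The adjusted p was 0.121 without dog 1, whose subcutaneous value of 4.73 was the lowest, 0.0586 to 0.101 without dog 5, 6, 7 or 8, and 0.0642 with the dog as a fixed block. It was 0.0527 without the 4 arrays with transcripts of another tissue and 0.0901 with an actin measure of RNA length as a covariate.

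The same direction held in each feeding group for C3 and C6. In ad libitum dogs 4 of 20 members passed, beside 7.19% of all probe sets, and in control dogs 3 of 20, beside 2.92%. C3 differed by 3.98 ± 0.45 in ad libitum dogs (adjusted p = 9.90e-05) and by 2.54 ± 0.50 in control dogs (adjusted p = 0.0132). C6 differed by 4.66 ± 0.62 (adjusted p = 0.000438) and 3.80 ± 0.69 (adjusted p = 0.00865). C5AR1 passed in both groups. C8G passed in ad libitum dogs, and since it met the filter through their subcutaneous fat alone it is no support for that count. With the dog as a random block 5 members passed in control dogs, C1S and CFP being added, a count without the share of all probe sets in that fit. In control dogs the count was 1, C6 alone, without dog 1 or without dog 3, where the adjusted p of C3 was 0.0934 and 0.0625. Among 22 alternative settings C3 lost its call in control dogs in 3, and C6 in 1 (limma, adjusted p = 0.066).

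**Figure D2:**
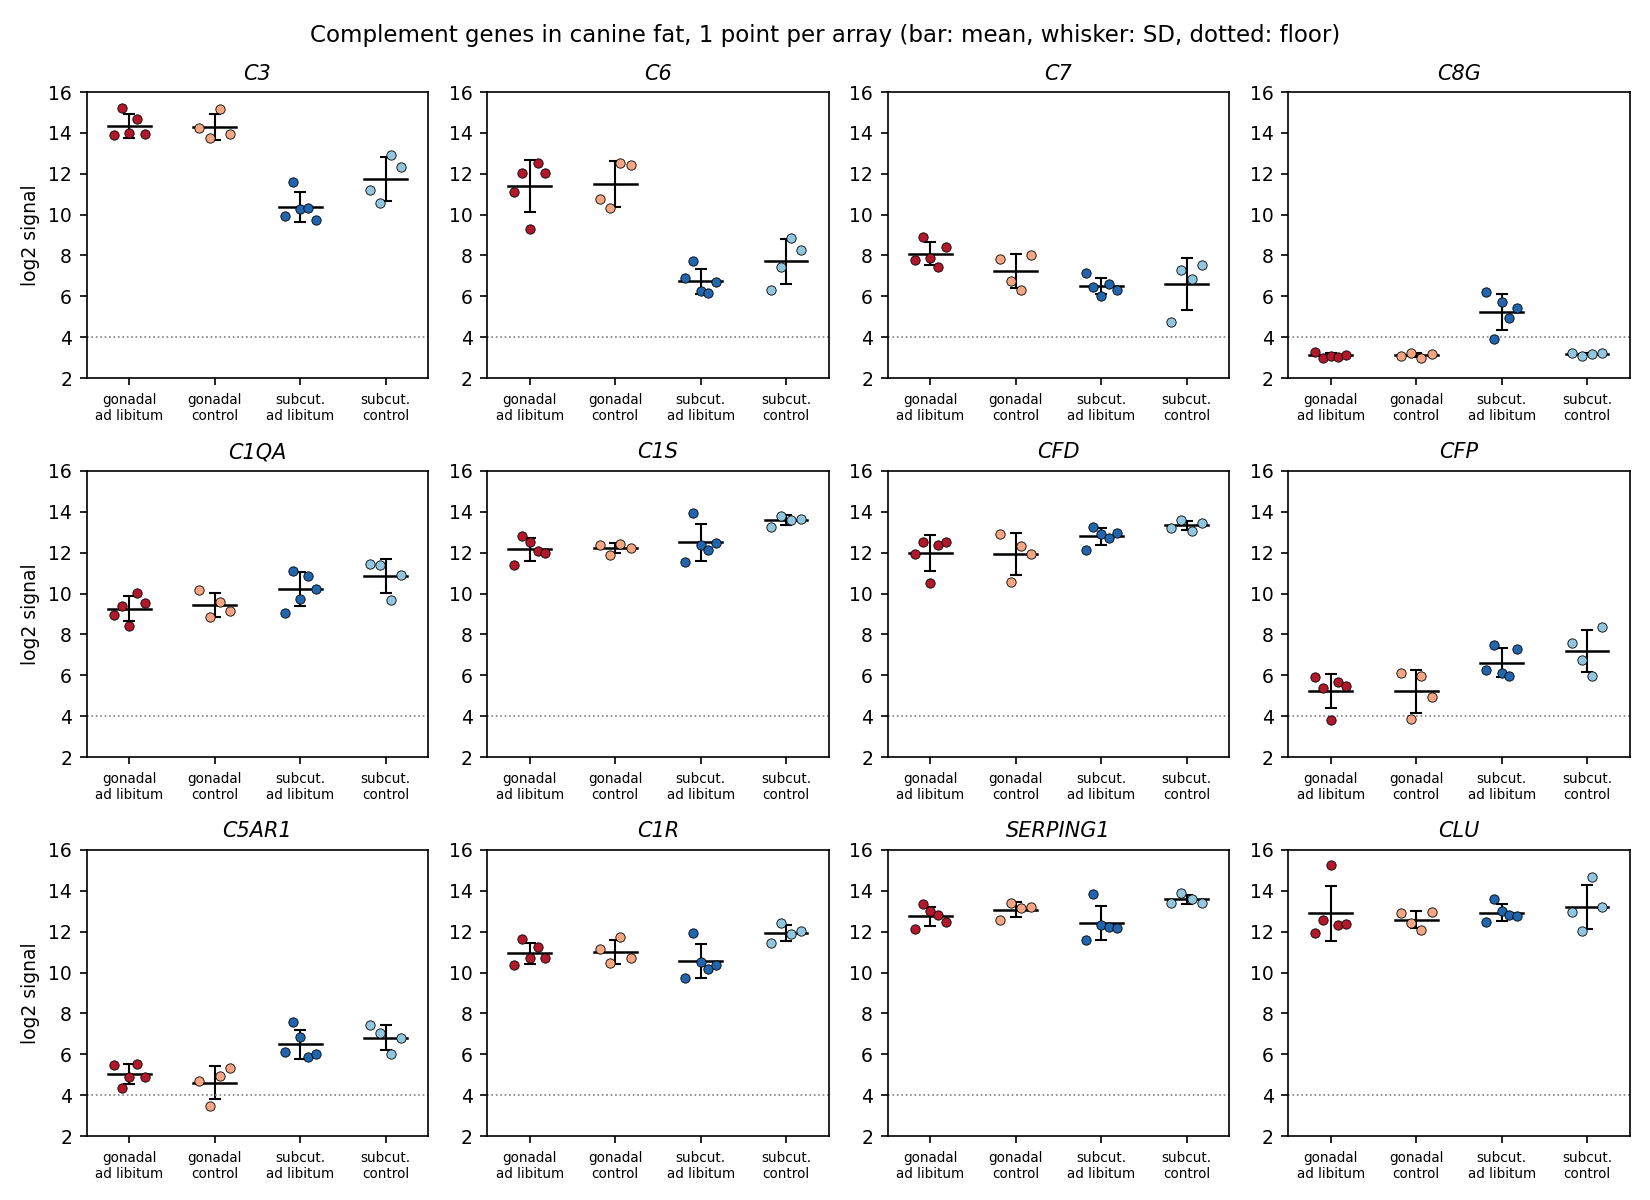
Log2 signal of 12 complement genes on each of 18 arrays, by group (gonadal and subcutaneous fat of ad libitum and control dogs), with group mean (bar), SD (whisker) and the floor of log2 4 (dotted). C3 and C6 are higher on every gonadal array than on any subcutaneous one, C5AR1 is lower on every gonadal array, and C8G is above the floor in subcutaneous fat of ad libitum dogs alone.

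Markers of mesothelium, the cell layer that covers abdominal fat, differed between the depots in the direction of C3 and C6. Of 8 tested mesothelial markers 7 were higher in gonadal fat and 1 (CALB2) was lower. UPK3B, UPK1B, WT1 and PKHD1L1 had subcutaneous means below the floor (3.84, 3.10, 3.43 and 3.71), and CALB2 a gonadal one (3.24). Their calls are a description and not independent support. The mean of 9 measured markers was 6.46 to 8.29 on the gonadal arrays. On the subcutaneous arrays it was 3.65 to 4.18, except 6.79 in control dog 4, which also had the highest subcutaneous C3 and C6. Control dog 9 had the next highest subcutaneous C3 and C6 with a marker mean of 3.81. The highest gonadal marker mean was 8.29 in control dog 4 (C3 15.17, C6 12.52). It was followed by 8.25 in ad libitum dog 6 (C3 14.00, C6 9.31, the lowest gonadal C6). Subcutaneous fat of dog 4 and gonadal fat of dog 6 are the arrays with ciliated epithelium and oviduct markers. These lay 3.68 and 5.32 log2 units above the median array, and subcutaneous fat of dog 4 carried skeletal muscle markers too. Without the subcutaneous array of dog 4 the differences were 3.45 for C3 (adjusted p = 9.12e-06) and 4.42 for C6 (adjusted p = 3.20e-05). The part of mesothelium in these differences was not tested.

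**Figure D3:**
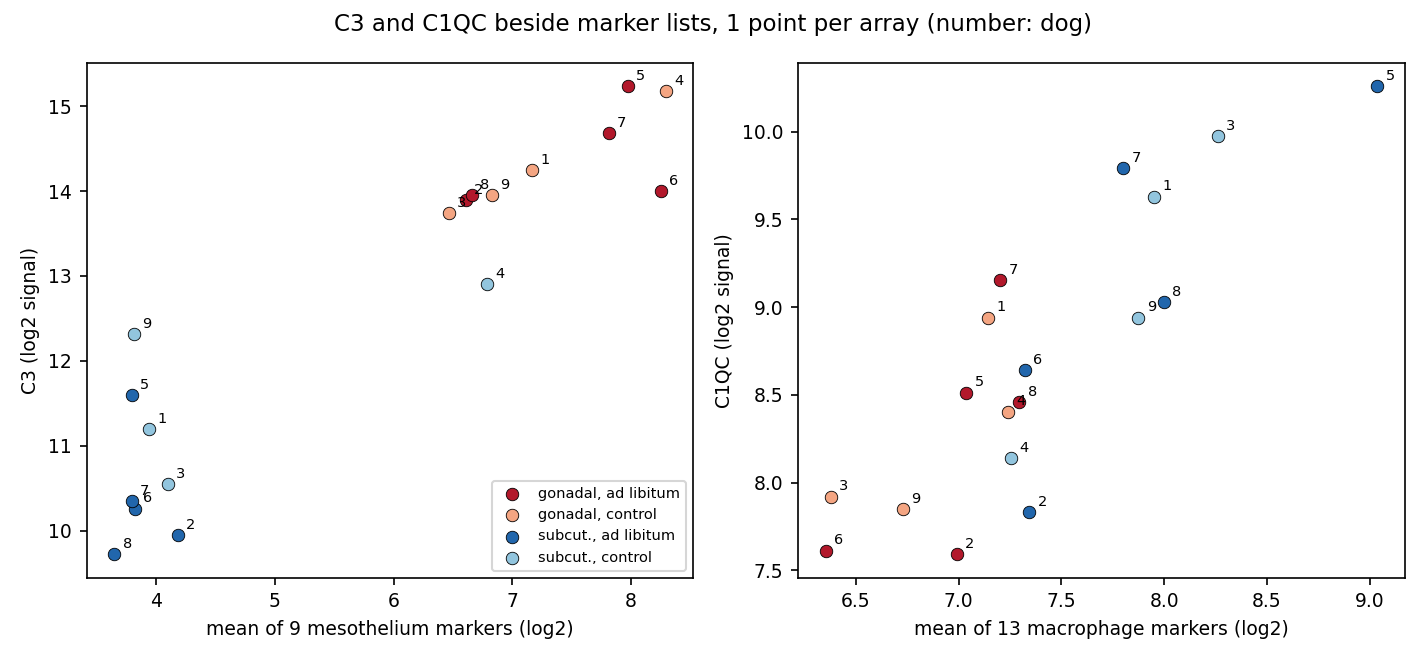
Left, C3 log2 signal against the mean of 9 mesothelial markers, and right, C1QC log2 signal against the mean of 13 macrophage markers, 1 point per array, labelled by dog. The gonadal arrays have mesothelial means of 6.46 to 8.29, and 1 subcutaneous array (dog 4) lies among them at 6.79, and C1QC is highest on the subcutaneous array of dog 5, which also has the highest macrophage mean, 9.04.

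The remaining terminal components were low. C5, which is cleaved to start the pore, had 2.82 to 3.04 and lay below the floor on all 18 arrays. So did C8B, a C8 subunit, at 2.96 to 3.19 and C9, which forms most of the pore, at 2.69 to 2.99. C8A, a further C8 subunit, reached it on 1 array (4.02 in gonadal fat of control dog 3). C5, C8A, C8B and C9 therefore did not pass the filter and were not tested.

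C8G, the small lipocalin-like subunit of C8, was above the floor in 1 group. Subcutaneous fat of ad libitum dogs 2, 5, 6, 7 and 8 had log2 signals of 6.19, 3.89, 5.74, 4.93 and 5.43, against 3.21, 3.09, 3.15 and 3.24 in subcutaneous fat of control dogs 1, 3, 4 and 9. Gonadal fat had 3.00 to 3.28 in ad libitum dogs and 3.01 to 3.22 in control dogs. These 4 values above the floor are the reason it passed the filter, so that its difference is a description and not independent support. It was at least 2.35-fold higher in subcutaneous fat of ad libitum than of control dogs (adjusted p = 0.0105), with the control mean set to the floor. Within ad libitum dogs it was at least 2.35-fold lower in gonadal than in subcutaneous fat (adjusted p = 0.000531). The second C8G probe set reached the floor on 2 arrays and was not tested. Without dog 1, 4 or 8 the adjusted p of the feeding difference was 0.0525 to 0.0585, and without the 4 arrays with transcripts of another tissue it was 0.113.

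On the chosen probe sets the 6 tested classical pathway genes had negative differences between gonadal and subcutaneous fat, with a median of -0.74, and 2 of them passed. For C2 the sign depended on the probe set. C1QA encodes 1 of the 3 chains of C1q, the protein that binds antibody complexes and dying cells. Its log2 signal was 8.93, 9.38, 8.41, 10.03 and 9.53 in gonadal fat of ad libitum dogs 2, 5, 6, 7 and 8 and 10.18, 8.83, 9.57 and 9.15 in that of control dogs 1, 3, 4 and 9. Subcutaneous fat had 9.07, 11.12, 9.75, 10.88 and 10.24 in ad libitum dogs and 11.46, 11.42, 9.68 and 10.91 in control dogs. The depots overlapped, but C1QA was lower in gonadal fat of 9 of 9 dogs (log2 difference -1.19 ± 0.32, adjusted p = 0.0191), and both of its probe sets passed. Without dog 3 or dog 9 its adjusted p was 0.0777 and 0.0521. The other chains had the same sign without passing, C1QC at -0.87 ± 0.34 (adjusted p = 0.0885) and C1QB at -0.63 ± 0.40 (adjusted p = 0.296), each lower in 8 of 9 dogs. With the dog as a block C1QC passed (adjusted p = 0.03 with a fixed and 0.0473 with a random block). C1QC ranged from 7.59 to 9.16 in gonadal and from 7.83 to 10.26 in subcutaneous fat, and C1QB from 6.41 to 8.76 in gonadal and from 6.72 to 9.33 in subcutaneous fat.

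C1S, the protease of the C1 complex that cleaves C4 and C2, was lower in gonadal fat of 8 of 9 dogs. Its log2 signal there was 11.39, 12.82, 12.54, 12.08 and 11.97 in ad libitum dogs 2, 5, 6, 7 and 8 and 12.39, 11.91, 12.44 and 12.23 in control dogs 1, 3, 4 and 9. Subcutaneous fat had 11.57, 13.96, 12.37, 12.15 and 12.47 in ad libitum dogs and 13.24, 13.81, 13.61 and 13.65 in control dogs. The depots overlapped in ad libitum dogs and not in control dogs (-1.34, adjusted p = 0.0702, and 0.0207 with a fixed or 0.0299 with a random block for the dog), with an average difference of -0.84 ± 0.26 (adjusted p = 0.0371). The other 3 C1S probe sets did not pass (differences of -0.48 to -0.82). The call was lost in 13 of 21 alternative settings, with an adjusted p of 0.0641 to 0.116 without dog 1, 3, 4, 7, 8 or 9 and of 0.159 without the 4 arrays with transcripts of another tissue. C1R, the protease that activates C1S, ranged from 10.37 to 11.73 in gonadal and from 9.75 to 12.43 in subcutaneous fat and differed by -0.28 ± 0.27 (adjusted p = 0.533). Its difference was 0.39 in ad libitum dogs and -0.94 in control dogs. MASP1, a protease of the lectin pathway, reached the floor on 1 array (4.15 in gonadal fat of ad libitum dog 5) and was not tested.

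C2, the protease precursor that pairs with C4b, gave opposite answers from different probe sets. The chosen probe set had 7.60 to 9.08 in gonadal fat and 8.49 to 10.17 in subcutaneous fat, and the difference of -0.54 ± 0.25 did not pass (adjusted p = 0.145). The second C2 probe set was lower in gonadal fat (-0.89, adjusted p = 0.0311) and the third stood at -0.46 (adjusted p = 0.364). In contrast the fourth C2 probe set had 7.21 to 10.78 in gonadal fat and 3.29 to 6.69 in subcutaneous fat, a difference of 4.69 (adjusted p = 1.20e-05). The fifth was higher by 4.37 (adjusted p = 2.06e-05), and the sixth was higher as well (adjusted p = 0.00298), though all 9 of its subcutaneous values lay below the floor. The sixth met the filter through gonadal fat alone, so its call is a description and not independent support.

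The depots did not overlap on the fourth C2 probe set, and on the fifth they met at 1 array of each depot. On both the highest subcutaneous value was that of dog 4 (6.69 and 7.93). With the probe set of highest variance, or the mean of all its probe sets, C2 would count as higher in gonadal fat (4.69 and 1.27, adjusted p = 1.20e-05 and 0.00353). In the RefSeq annotation of the UU_Cfam_GSD_1.0 assembly CFB, the alternative pathway protease precursor, lies next to C2, and no probe set carried CFB as its single symbol here. Which transcript each of the C2 probe sets reads was not tested.

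**Figure D4:**
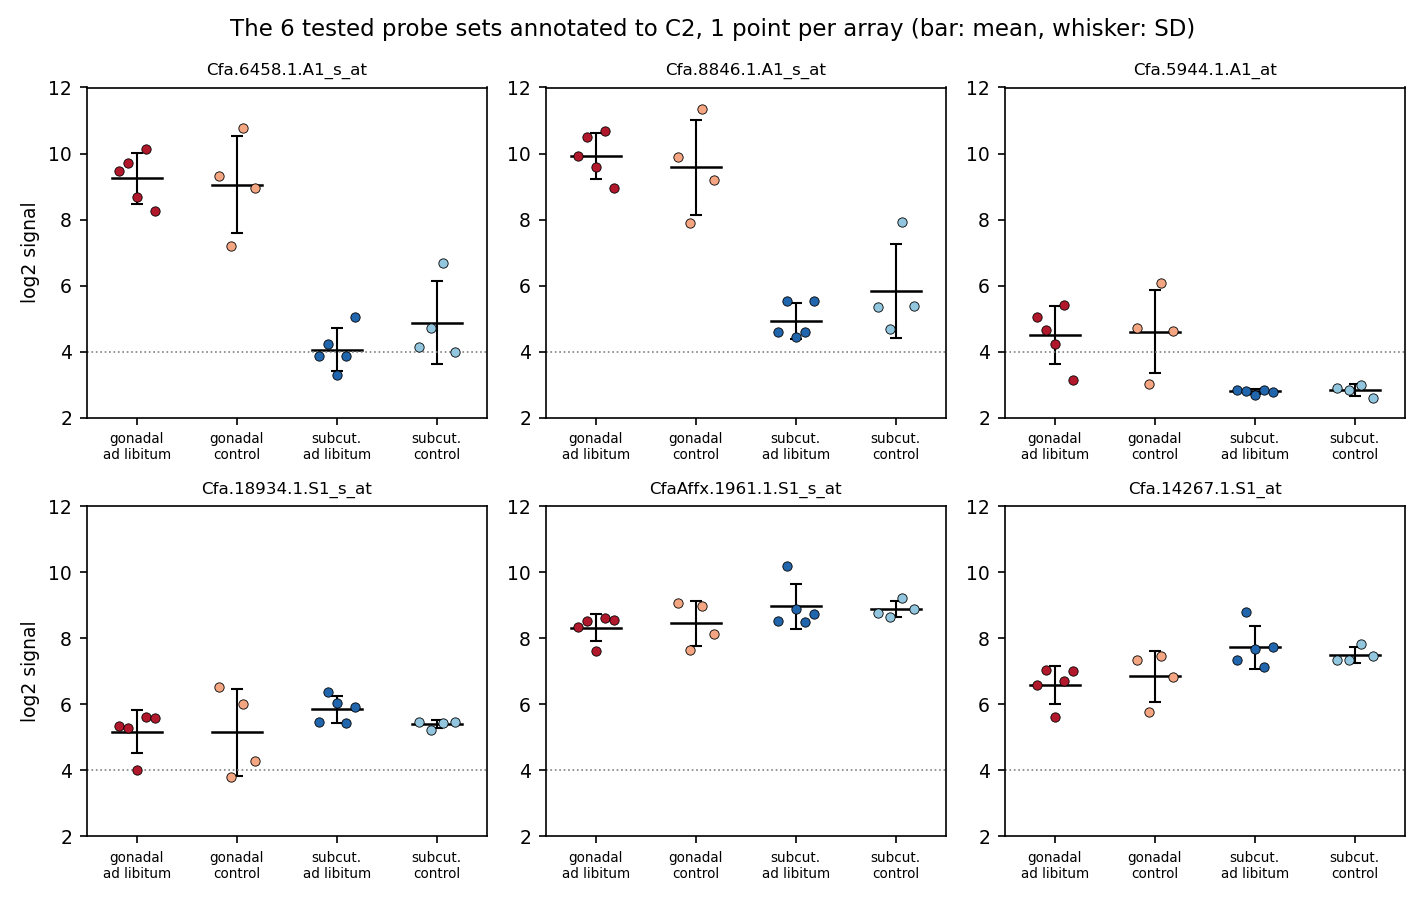
Log2 signal on each of 18 arrays for the 6 tested probe sets annotated to C2, by group, with mean and SD and the floor of log2 4 (dotted). The 3 probe sets of the upper row are higher in gonadal fat, and the 3 of the lower row have a lower mean in gonadal than in subcutaneous fat.

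Both measured genes of the alternative pathway were lower in gonadal fat. CFP encodes properdin, which stabilises the alternative pathway convertase. Its log2 signal was 5.90, 5.40, 3.79, 5.68 and 5.46 in gonadal fat of ad libitum dogs 2, 5, 6, 7 and 8 and 6.12, 3.87, 5.94 and 4.92 in that of control dogs 1, 3, 4 and 9. Subcutaneous fat had 6.25, 7.48, 6.11, 5.99 and 7.27 in ad libitum dogs and 7.58, 6.76, 5.98 and 8.38 in control dogs. The depots overlapped near log2 6, CFP was lower in gonadal fat of 9 of 9 dogs, and the difference was -1.67 ± 0.40 (adjusted p = 0.00984). Its second, dimmer probe set gave -0.51 (adjusted p = 0.103).

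CFD encodes factor D, the adipocyte protease that cleaves factor B. Its log2 signal was 11.93, 12.52, 10.50, 12.40 and 12.55 in gonadal fat of ad libitum dogs 2, 5, 6, 7 and 8 and 12.91, 10.56, 12.35 and 11.93 in that of control dogs 1, 3, 4 and 9. Subcutaneous fat had 12.15, 13.26, 12.89, 12.74 and 12.95 in ad libitum dogs and 13.23, 13.61, 13.05 and 13.44 in control dogs. The depots overlapped. CFD was lower in gonadal fat of 9 of 9 dogs (log2 difference -1.11 ± 0.31, adjusted p = 0.0238). The lowest values were those of gonadal fat of ad libitum dog 6 (10.50) and control dog 3 (10.56). Without dog 3 the difference was -0.83 (adjusted p = 0.0734), without dog 9 it was -1.09 (adjusted p = 0.0557), and without the 4 arrays with transcripts of another tissue it was -0.85 (adjusted p = 0.0901). No adipocyte marker out of 9 differed between the depots in that comparison.

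C5AR1, the receptor for the inflammatory fragment C5a on myeloid cells, was lower in gonadal fat. It had log2 signals of 5.49, 4.37, 4.88, 5.52 and 4.89 in gonadal fat of ad libitum dogs 2, 5, 6, 7 and 8 and of 4.69, 3.49, 4.96 and 5.31 in that of control dogs 1, 3, 4 and 9. Subcutaneous fat had 6.12, 7.56, 6.84, 5.89 and 6.04 in ad libitum dogs and 7.41, 7.06, 6.02 and 6.78 in control dogs. The depots did not overlap. The difference was -1.83 ± 0.29 (adjusted p = 0.00072), with -1.46 ± 0.38 in ad libitum dogs (adjusted p = 0.0309) and -2.20 ± 0.43 in control dogs (adjusted p = 0.012). In ad libitum dogs the adjusted p was 0.0744 with the dog as a fixed block and 0.0867 to 0.141 without dog 5, 6 or 8. In control dogs it was 0.0884 without dog 1 and 0.087 without dog 3. C5AR1 lost its call in 6 of 22 alternative settings in ad libitum dogs and in 3 of 22 in control dogs. C3AR1, the receptor for C3a, ranged from 2.94 to 6.14 in gonadal and from 3.56 to 6.17 in subcutaneous fat and differed by -0.17 ± 0.42 (adjusted p = 0.822).

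Macrophage markers moved with C1QA and C5AR1 between the depots. Of 12 tested markers 7 were lower in gonadal fat and none was higher, and ADGRE1 lay below the floor on all 18 arrays. The mean of the 13 measured markers was 6.35 to 7.30 on gonadal arrays and 7.25 to 9.04 on subcutaneous arrays. Of 9 stromal markers 5 were lower in gonadal fat and none was higher. Within a depot, C1QA followed the macrophage mean (Pearson r = 0.818, Spearman rho = 0.817, exact permutation adjusted p = 0.0171 and 0.0359, 9 gonadal arrays). C3AR1 did so in gonadal fat (r = 0.929, rho = 0.883, adjusted p = 0.00306 and 0.0308, exact permutation, 9 arrays).

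In subcutaneous fat C1QC (r = 0.850, rho = 0.833, adjusted p = 0.0117 and 0.0359, exact permutation, 9 arrays) followed the macrophage mean. C1QB (r = 0.813) and C1QA (r = 0.728) passed by Pearson (adjusted p = 0.0132 and 0.044, exact permutation) and not by Spearman (rho = 0.750, adjusted p = 0.051 for each). C5AR1 passed in neither depot (r = 0.451 in gonadal and 0.637 in subcutaneous fat, adjusted p = 0.244 and 0.0838, exact permutation). In all 5 of 10 relations passed by Pearson. Without the 2 arrays farthest from the median of the marker mean, r was 0.587 for C1QA and 0.766 for C3AR1 in gonadal fat. In subcutaneous fat it was then 0.808 for C1QC, 0.855 for C1QB and 0.845 for C1QA. With the median of the markers in place of their mean no relation passed. The part of macrophages in the depot differences was not tested.

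No regulator passed between the depots in the fit without a dog block, and CFI was higher with the dog as a fixed block. SERPING1, the C1 inhibitor that blocks C1R and C1S, had 12.16 to 13.38 in gonadal fat and 11.59 to 13.91 in subcutaneous fat (difference -0.09 ± 0.25, adjusted p = 0.845, 95% interval -0.61 to 0.43), and 4 of its 5 probe sets had a positive difference. CFI, the protease that degrades C3b and C4b, was at 0.68 ± 0.32 (adjusted p = 0.156, and 0.0138 with the dog as a fixed block). In ad libitum dogs it passed with that block (1.12, adjusted p = 0.0113). In the average over the feeding groups, without a block, 1 of its 3 tested probe sets was higher in gonadal fat (1.03, adjusted p = 0.0456). CFI ranged from 9.40 to 11.64 in gonadal and from 8.75 to 11.05 in subcutaneous fat and was higher in gonadal fat of 8 of 9 dogs. VTN, vitronectin, stood at 0.25 ± 0.41 and the pore inhibitor CD59 at 0.21 ± 0.21 (adjusted p = 0.723 and 0.527). VTN spanned 4.26 to 6.79 in gonadal and 3.78 to 6.92 in subcutaneous fat, and CD59 10.91 to 12.25 in gonadal and 10.39 to 11.81 in subcutaneous fat. C1QBP, a mitochondrial and surface protein that binds C1q, differed by -0.06 ± 0.10, and its 18 values lay between 10.10 and 10.92.

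CLU, or clusterin, a chaperone that also binds terminal complexes, differed by -0.33 ± 0.41 (adjusted p = 0.629), but 2 arrays stood far above the rest. Gonadal fat of ad libitum dog 6 had 15.29 and subcutaneous fat of control dog 4 had 14.67, and the other 16 arrays lay between 11.95 and 13.60. These are the 2 arrays with ciliated epithelium and oviduct markers. C4BPB, a chain of the C4b-binding protein and not a member, was also highest on them (8.21 and 6.83).

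With ad libitum feeding 1 of 20 members, C8G, was higher in subcutaneous fat, beside 2.36% of all probe sets. C8G met the filter through subcutaneous fat of ad libitum dogs alone, so its place in this count is no support for it. No member was lower by the threshold, but 16 of the 20 had a negative difference, and their median was -0.55, beside 0.00 for all genes tested. The 4 tested soluble regulators were all negative, with a median of -0.92. The members with the smallest p after C8G were C1R and SERPING1, a protease and its inhibitor. C1R had log2 signals of 9.75, 11.96, 10.54, 10.15 and 10.37 in subcutaneous fat of ad libitum dogs 2, 5, 6, 7 and 8, against 11.47, 12.43, 11.87 and 12.03 in that of control dogs 1, 3, 4 and 9. Dog 5 was the one ad libitum dog inside the control range. The difference was -1.39 ± 0.39 (adjusted p = 0.0642).

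SERPING1 had the same pattern. Its log2 signal was 11.59, 13.83, 12.32, 12.21 and 12.19 in subcutaneous fat of ad libitum dogs, against 13.39, 13.91, 13.62 and 13.43 in that of control dogs, with dog 5 again inside the control range. The difference was -1.15 ± 0.35 (adjusted p = 0.0806), and its 5 probe sets gave -1.13 to -1.43. C3 stood at -1.37 ± 0.48 (adjusted p = 0.114), C1S at -1.08 ± 0.37 (adjusted p = 0.109), CFI at -1.03 ± 0.45 (adjusted p = 0.183) and CD59 at -0.68 ± 0.29 (adjusted p = 0.181). C6 stood at -0.97 ± 0.66, VTN at -0.81 ± 0.58, C1QA at -0.65 ± 0.46, CFP at -0.56 ± 0.56 and CFD at -0.53 ± 0.44, with adjusted p of 0.374 to 0.561. C3AR1 had the largest positive value after C8G, 1.15 ± 0.59 (adjusted p = 0.243).

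Without dog 5, 5 members passed: C8G was higher, and C1R (-1.75, adjusted p = 0.00487), SERPING1 (-1.50, adjusted p = 0.00337), C1S and C3 were lower. In that fit 12.6% of all probe sets passed. The subcutaneous array of dog 5 had the highest macrophage mean of the 18 arrays, 9.04. Among subcutaneous arrays of ad libitum dogs it also had the highest stromal mean (12.71) and the lowest adipocyte mean (10.90). Both lay within the range of the subcutaneous control arrays (12.24 to 13.28 and 10.62 to 11.89). Without the 4 arrays with transcripts of another tissue, 2 of which were subcutaneous controls, no member passed, and C1R stood at -1.20 (adjusted p = 0.307) and SERPING1 at -0.98 (adjusted p = 0.347). Of the 9 stromal markers 1 was lower with ad libitum feeding, and their median was -0.84. No mesothelial, skeletal muscle or macrophage marker passed, and the medians were -1.12, -3.71 and -0.02 over 8, 8 and 12 tested markers, while 1 of 9 adipocyte markers was higher (median 0.73). The part of these cell types in the feeding differences was not tested.

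In gonadal fat no member passed for feeding, beside 0% of all probe sets (limma). At an unadjusted p under 0.05 there were 0 of 20 members and 531 of 21484 probe sets. C7 had the smallest p (0.85 ± 0.50, adjusted p = 1.00, 95% interval -0.20 to 1.91), followed by C5AR1 (0.42 ± 0.41) and C1QB (-0.56 ± 0.56). C3 differed by 0.07 ± 0.48, with an interval of -0.94 to 1.08.

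**Figure D5:**
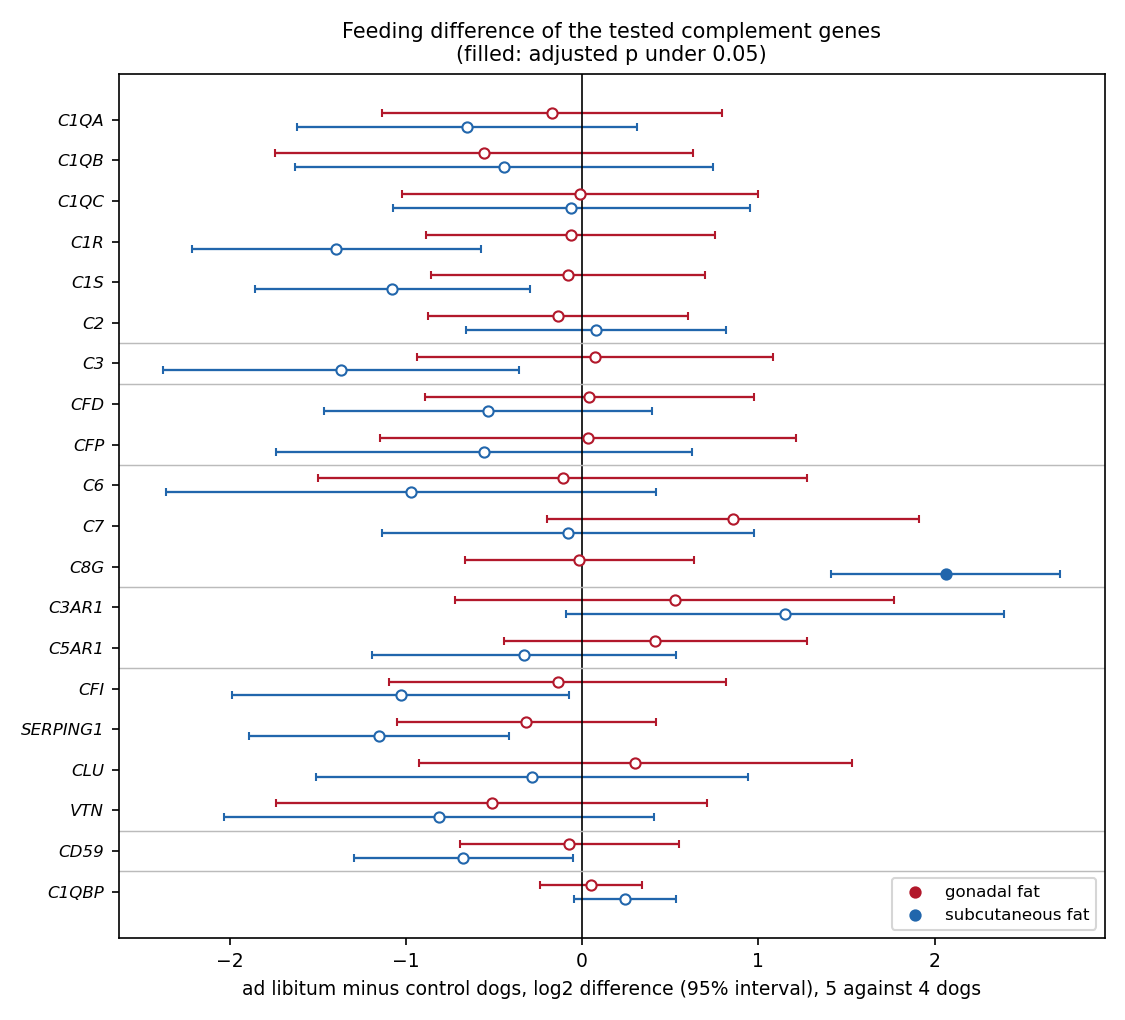
Ad libitum minus control log2 difference of the 20 tested complement genes in gonadal (upper, red) and subcutaneous fat (lower, blue), 5 against 4 dogs, with 95% intervals from limma. C8G in subcutaneous fat is the one filled point (adjusted p under 0.05), and 16 of 20 subcutaneous values lie to the left of 0.

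No member passed for a feeding difference that depended on the depot, beside 0% of all probe sets (limma). At an unadjusted p under 0.05 there were 3 of 20 members, C8G, C1R and C3, and 1344 of 21484 probe sets. C8G met the filter through 1 group alone and is no support for that count. The difference of the feeding responses, gonadal minus subcutaneous, was 1.44 ± 0.68 for C3 and 1.33 ± 0.55 for C1R (adjusted p = 0.748 for each). For C8G the adjusted p was 0.456, and it was 0.0127 without dog 5, whose subcutaneous value lay below the floor. Of the 20 members 15 had a positive value, with a median of 0.59, beside -0.01 for all genes tested.

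RNA length, read from the 3' minus 5' signal of the actin control, is a quality measure that stood beside these comparisons. It was 3.49 ± 0.77 in subcutaneous fat of ad libitum dogs, against 4.75 ± 1.02 in that of control dogs (SD, n = 5 and 4, exact permutation p = 0.0873, two-sided). Between the depots it was 3.13 ± 0.88 in gonadal and 4.05 ± 1.06 in subcutaneous fat (SD, n = 9 each, exact permutation p = 0.0898). The GAPDH control differed less, by -0.01 between ad libitum and control dogs in subcutaneous fat (exact permutation p = 0.913) and by -0.15 between gonadal and subcutaneous fat (exact permutation p = 0.246). With the actin signal as a covariate C3, C6, C8G, CFP, CFD, C1QA and C5AR1 kept their depot call and CFI was added as higher. That makes 8 members in all, a count without the share of all probe sets in that fit. No member passed for feeding in subcutaneous fat in that fit, where C8G stood at an adjusted p = 0.095.

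Of 27 further complement genes, 18 had a probe set and 9 were tested. In gonadal fat 2 of the 9 were lower and none was higher, which is 22.2% beside 16.6% of all probe sets. They were ITGB2, the shared chain of complement receptors 3 and 4 (-1.25 ± 0.29, adjusted p = 0.00794), and VSIG4, a complement receptor of tissue macrophages (-1.21 ± 0.38, adjusted p = 0.0396). Each was lower in 8 of 9 dogs, in the direction of the macrophage markers. None of the 9 passed for feeding in either depot or for a feeding difference that depended on the depot.

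The 6 listed members MASP2, CFB, CR2, C4BPA, CD46 and CD55 had no probe set annotated to them alone and are not analysed here. Levels of different genes were not compared, because a probe set's brightness also depends on its probes.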

How the data were processed

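Expression was measured on 18 Affymetrix canine arrays, 1 per depot of each of 9 dogs. The deposited values are log2 signals made by the authors with GCRMA, per the submitters' processing notes, and their log base was read from their range (0.681 to 16.5). Which GCRMA version was run, with which options, is not given in the sources used here. Precision is limited by the number of arrays.

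Of 43035 probe sets 111 controls were left out, and 29254 of the other 42924 had 1 gene symbol, 439 several and 13231 none. The 21484 probe sets at log2 4 or more in at least 4 arrays were fitted with limma 3.58.1 (R 4.3.3) on 4 group means with 14 residual degrees of freedom, and p-values were adjusted by Benjamini-Hochberg over all of them. Errors after differences are standard errors, and fold bounds set a group mean below the floor to it. The script was tested on simulated data. The animal number pairs the 2 arrays of each dog, since the labels give the same animal, and the correlation of their deviations was -0.05 to 0.53 (over 0.1 in 6 of 9 dogs). The dog was a block in alternatives (statmod 1.5.0). Relations and RNA length used exact permutation tests, two-sided (scipy 1.17.1). Named genes are, per comparison, every member past the threshold and the 3 with the smallest p; the probe sets of C2 and the arrays singled out for CLU and C4BPB were chosen after their values were seen. The members and lists were chosen with earlier results of these data known.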

Additional observations from a re-analysis of the deposited data

Results flagged for a closer look

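Within the 80 combinations of a tested member and a group, 8 held 1 array far from the others, and chance flags about 1 in 20 groups. CLU was 15.29 in gonadal fat of ad libitum dog 6, and the other 4 dogs of that group had 11.95 to 12.58. CFP was 3.79 in the same array, against 5.40 to 5.90 in the others. C2 was 7.60 there, against 8.33 to 8.59. C2 was also 10.17 in subcutaneous fat of ad libitum dog 5, against 8.49 to 8.88. CFI was 9.62 in gonadal fat of control dog 1, where the other control dogs had 11.08 to 11.34. C1QBP was 10.71 in gonadal fat of ad libitum dog 2 (others 10.22 to 10.35) and 10.92 in its subcutaneous fat (others 10.33 to 10.47). C1QBP was 10.21 in gonadal fat of control dog 3, against 10.36 to 10.39.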

How the results depend on the processing

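The number of members called between the depots stayed within 1.5 times its value in all 21 alternatives for the average (6 to 10 against 9) and in all 22 for ad libitum dogs (3 to 6 against 4). No call on a member turned its direction in these alternatives. C2, which did not pass, turned to higher in gonadal fat with the probe set of highest variance (4.69) or the mean of all probe sets (1.27). In the average depot difference 10 of 416 values over all members turned sign, in 4 genes (C2, SERPING1, CLU and C3AR1), none of them called in the reported fit. In control dogs it was 5 with the dog as a random replicate block, 1 with the actin signal as a covariate and 1 to 4 without 1 dog, against 3. For feeding in subcutaneous fat it was 0 with a floor of log2 6, with only the arrays of the comparison (C8G adjusted p = 0.0604), with the actin covariate, without the 4 arrays with transcripts of another tissue and with the mean of all probe sets of a gene, and 0 to 5 without 1 dog, against 1. C8G was not testable under the higher floor or the mean of probe sets. For feeding in gonadal fat it was 0 in all 21 alternatives, and for the interaction 0 to 1 without 1 dog. The macrophage relation held for 0 of 10 pairs with the median of the markers and 8 after subtracting feeding means, against 5. As a random block the dog added C7 in ad libitum dogs, C1S and CFP in control dogs and C1QC in the average. As a fixed block it gave 10 members in the average (C1QC and CFI added, C7 lost), 4 in control dogs (C1S added) and 4 in ad libitum dogs (CFI added, C5AR1 lost), and neither block changed another call. C3, C6, CFP and C5AR1 kept their average depot call in all 21 alternatives. A fixed block could not be fitted for feeding, nor the comparison's own arrays for the average and interaction. Leaving out the subcutaneous array of dog 4 alone was chosen after seeing the data. The counts of members called in this section stand without the share of all probe sets called in each fit. They describe how the calls depend on the setting and are no result about complement. Causes of these shifts were not tested. Signals near the floor limit C8G, and C5, C8A, C8B, C9 and MASP1 were not tested.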
